A study of Mus musculus with 18 samples.

Results

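The undifferentiated cells of the Hmga2 knockout (KO) clone KO#2 were compared with wild-type (wt) cells at 0 h by RNA-seq. The comparison uses 6 of the 18 libraries of the series, 3 of KO#2 and 3 of wt cells, which were chosen by the genotype, clone and time point in their labels. Both groups were mouse induced pluripotent stem cells (iPSCs) expanded on inactivated fibroblast feeders with serum, leukemia inhibitory factor (LIF) and the kinase inhibitors PD0325901 and CHIR-99021. They were sampled before transfer to the Activin A and bFGF medium that turns such cells into epiblast-like cells (EpiLCs), although a treatment tag in the labels names EpiLC induction for the 0 h libraries too. The libraries of a group are numbered as biological replicates, but wt cells came from 1 clone and KO#2 is 1 clone, so the genotype and the clone cannot be told apart within these 6 libraries. The remaining libraries, a KO clone named KO#1 at 0 h and the same lines at 24 h of induction, entered the same fit and are used only beside the results on KO#2.

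Hmga2 belongs to a family of small chromatin proteins that bind the minor groove of AT-rich DNA through short motifs called AT-hooks. It is abundant in embryonic cells and scarce in most adult tissues, and its mRNA is held down by let-7 microRNAs, whose maturation Lin28 proteins block. Naive pluripotent cells of the mouse resemble the early epiblast, in which LIF acts through the transcription factor Stat3, while the MEK inhibitor PD0325901 blocks the FGF signal and CHIR-99021 blocks GSK3 and so raises Wnt signalling.

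Levels are given in CPM, counts scaled to the same fixed total in every library with TMM factors, which correct for differences in composition between libraries. A difference is a log2 fold change of KO#2 minus wt cells with its standard error (SE), and it was called when the adjusted p of edgeR's quasi-likelihood test was under 0.05. Total counts were 3466436, 10001297 and 10599720 in wt replicates 1, 2 and 3, and 16995756, 15952637 and 14495941 in KO#2. The lowest level taken as detectable, 3 counts, was 0.984 CPM in wt replicate 1 and between 0.122 and 0.275 CPM in the other 5 libraries. The wt replicate 1 stood apart, with 33.3% of its counts on the noncoding gene Gm26917, against 1.88% to 15.8% in the other 5. Where leaving it out ended a call of a named gene or moved its log2 difference by over 1.5 times, this is given beside the gene. The summed level of 6 genes of iPSC identity (Pou5f1, Nanog, Sox2, Zfp42, Esrrb and Dppa5a) was 4395, 4187 and 3591 CPM in wt cells and 2934, 4149 and 2844 CPM in KO#2, and none of the 6 was at 0 in any library.

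Of 16619 genes tested, 6329 were called, which is 38.1% of them, 3571 higher (21.5%) and 2758 lower (16.6%) in KO#2. The median difference over all genes tested was 0.10. The clone KO#1, compared with the same wt libraries, gave 1108 called genes (6.67%), 663 higher (3.99%) and 445 lower (2.68%). A direct comparison of the KO clones, which shares the KO#2 libraries, gave 4393 (26.4%). Pearson's r between log2 CPM across genes, which are not independent replicates, averaged 0.966 among the wt libraries, 0.972 among the KO#2 libraries and 0.905 between wt and KO#2 libraries. Because these are bulk samples, fewer cells of a type and less RNA per cell cannot be told apart for any of the genes below.

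The differences followed the base composition of the transcripts. Genes were divided into 10 equal groups by the GC content of their longest transcript. In the lowest, at 30.8% to 41.0% GC, 771 of 1652 genes rose and 26 fell, with a median difference of 1.15. In the highest, at 57.8% to 75.5% GC, 56 of 1651 rose and 651 fell, with a median of -0.78. Across 16517 genes Spearman's rho between difference and GC content was -0.50, which is a description over genes that share the same 6 libraries. The slope of log2 CPM on GC content also differed between libraries of one group. Measured against the mean over the 6 groups of libraries and per 10% GC, it was 0.64, 0.12 and 0.27 in wt replicates 1, 2 and 3 and -0.30, -0.40 and -0.35 in KO#2. Offsets corrected for GC content in each library were therefore used beside the TMM fit. They gave 4164 called genes of 16517 (25.2%), 1609 higher (9.74%) and 2555 lower (15.5%), and 3077 genes were called in both fits with the same sign. The share of called genes that were higher was 56.4% in the TMM fit and 38.6% in the GC-corrected fit. For each gene named below the call held in the GC-corrected fit unless stated otherwise.

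**Figure D1:**
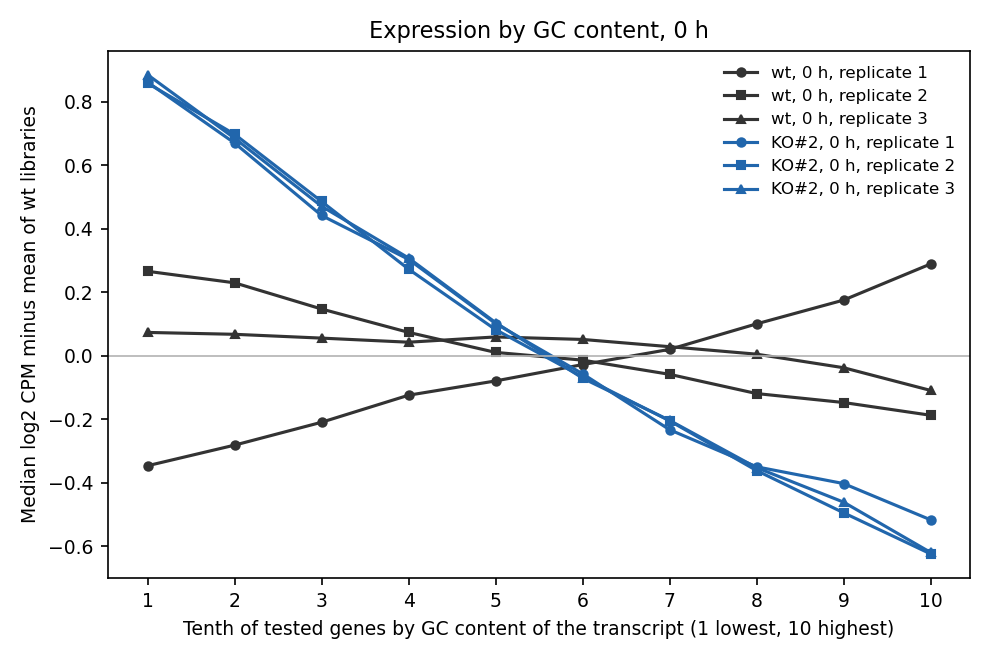
Median over genes of log2 CPM minus the mean of the 3 wt libraries (vertical axis) in 10 equal groups of tested genes ordered by GC content (horizontal axis), with 1 line for each wt (black) and KO#2 (blue) library at 0 h. The KO#2 libraries lie at 0.86, 0.86 and 0.89 in the first group and at -0.52, -0.62 and -0.62 in the last, while wt replicate 1 runs the other way, from -0.35 to 0.29.

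The targeted gene was lower but present in KO#2. Hmga2 (chr10:120361275-120476469, minus strand, GRCm38) was at 17.4, 13.3 and 22.4 CPM in wt replicates 1, 2 and 3 and at 4.1, 1.84 and 8.25 CPM in KO#2. All 3 KO#2 libraries lay below all 3 wt libraries. The difference was -1.90 ± 0.62 (SE, adjusted p = 0.023 by edgeR), and -2.55 in the GC-corrected fit (adjusted p = 0.00598). The call was lost without wt replicate 3, KO#2 replicate 1 or KO#2 replicate 2, with an adjusted p of up to 0.0863. In KO#1 the level was 10.2, 4.59 and 1.75 CPM (difference -1.71, adjusted p = 0.124). At 24 h it was 5.87, 5.51 and 5.93 CPM in wt cells and 10.4, 3.02 and 3.48 CPM in the libraries labelled KO#2, where the groups overlapped and the difference was -0.04 (adjusted p = 0.966). The counts cover the whole gene, and the deleted part is not stated in the sources used here. The transcripts 1700006J14Rik and 9230105E05Rik lie antisense over Hmga2, and the use of strand in the counting is not given in the sources used here.

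Hmga1 (chr17:27556497-27563674, plus strand, GRCm38) encodes the other AT-hook protein of the family and fell in KO#2. Hmga1 was at 436, 339 and 278 CPM in wt cells and at 31.9, 24.3 and 42.8 CPM in KO#2. The groups were far apart, with the lowest wt library above the highest KO#2 library, and the difference was -3.41 ± 0.40 (adjusted p = 1.42e-05 by edgeR, GC-corrected -2.63). Hmga1 also differed between the KO clones (-1.53 for KO#2 minus KO#1, adjusted p = 0.00684). AI413582 and Gm49774 lie antisense over Hmga1, and its counts are uncertain wherever its reads also fit near-identical sequence elsewhere in the genome.

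Lin28a, the RNA-binding protein that blocks let-7 maturation, fell from 36.7, 73.4 and 84.2 CPM in wt cells to 7.44, 9.89 and 21.5 CPM in KO#2 (difference -2.33, adjusted p = 0.00174 by edgeR). Igf2bp2, an mRNA-binding protein known as a transcriptional target of Hmga2, fell from 119, 94.9 and 114 CPM to 48.1, 23.2 and 43 CPM (-1.52, adjusted p = 0.000957). Neither gene overlapped between the groups. Both were also lower in KO#1, which shares the wt libraries, at 6.13, 13.8 and 29.2 CPM for Lin28a and 50.3, 58.7 and 49.7 CPM for Igf2bp2. Among the 7 members of the HMGA and Lin28 list, 0 rose and 5 fell (median -1.52, with 16.6% of all genes tested lower), the fifth being Igf2bp1 at a difference of -1.04, while Lin28b and Igf2bp3 were at 0.07 and -0.32 and were not called.

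**Figure D2:**
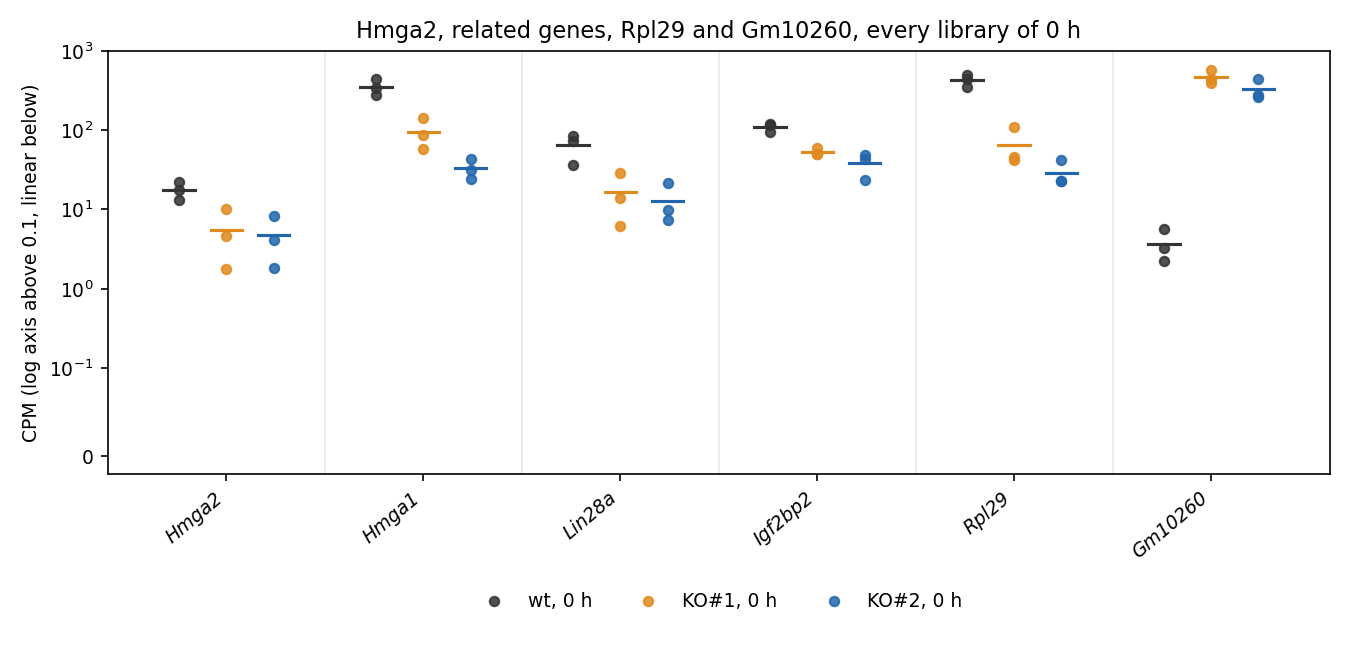
CPM on a log axis (linear below 0.1) of Hmga2, Hmga1, Lin28a, Igf2bp2, Rpl29 and Gm10260 in every 0 h library of wt cells (black), KO#1 (orange) and KO#2 (blue), with a bar at each group mean. Both KO clones lie below wt cells for Hmga1 and Lin28a, and Rpl29 (349 to 490 CPM in wt cells, 22.6 to 41.7 CPM in KO#2) and Gm10260 (2.25 to 5.60 CPM in wt cells, 264 to 435 CPM in KO#2) move in opposite directions.

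Most of the genes with the largest falls were at or below about 1 CPM in KO#2. By the rule for named genes, the 10 largest falls were taken among called protein-coding genes whose groups did not overlap and whose mean in the higher group was at least 5 CPM. The 10 largest rises, the most abundant genes and the noncoding genes were taken in the same way, so that separate groups are set by this choice. Across all genes, 8796 of 16619 (52.9%) did not overlap between the groups, and 6066 (36.5%) were also called. Olig2, a basic helix-loop-helix transcription factor of motor neuron and oligodendrocyte progenitors, was at 35.8, 19.2 and 22.1 CPM in wt cells and had 0 counts in every KO#2 library. Against a floor of 3 counts in each library it was at least 192-fold lower (adjusted p = 1.62e-06 by edgeR). Its neighbour Olig1, a factor of the same family, fell from 28.5, 11.1 and 15.3 CPM to 0.244, 0.09 and 0.048 CPM (difference -7.02 ± 0.66, adjusted p = 3.18e-06). The genes start 44315 bases apart, at chr16:91225457-91228677 for Olig2 and chr16:91269772-91271933 for Olig1, both on the plus strand, and Gm15966 lies antisense over Olig1. Olig2 had 0 counts in KO#1 too, and Olig1 was at 0.521, 0 and 0.234 CPM there, so both clones stood apart from wt cells at this pair.

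Ubd, a ubiquitin-like protein that tags proteins for the proteasome, was at 7.22, 12.6 and 8.17 CPM in wt cells and had 0 counts in all KO#2 libraries, at least 69.8-fold lower (adjusted p = 1.42e-05 by edgeR), and also 0 counts in KO#1. Apoa2, an apolipoprotein of high-density lipoprotein, was at 5.25, 5.33 and 6.5 CPM in wt cells and 0.0406, 0 and 0.0959 CPM in KO#2. The ratio of wt to KO#2 was 132-fold (95% counting interval 44.4 to 649). Nod1, a cytosolic sensor of bacterial peptidoglycan, fell from 61.7, 22.7 and 44.6 CPM to 1.22, 0.899 and 1.15 CPM (-5.28, adjusted p = 1.31e-07). The unconventional myosins Myo1f and Myo7a fell as well, from 8.63 to 16.4 CPM in wt cells to between 0.225 and 0.325 CPM in KO#2 and from 29.6 to 52.1 CPM in wt cells to between 1.71 and 4.18 CPM in KO#2 (-5.41 and -3.93). All of these genes were also lower in KO#1 than in wt cells, and for Nod1, Myo1f and Myo7a the differences of KO#2 minus KO#1 were 0.54, 0.62 and 0.34, none of them called.

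Ngfr, a receptor for neurotrophins, fell from 23.9, 13.7 and 18.9 CPM to 0.61, 0.495 and 0.528 CPM (-5.08 ± 0.65, adjusted p = 3.95e-05 by edgeR). Camk2n1, an inhibitor of the kinase CaMKII, fell from 25.9, 13.9 and 18.7 CPM to 0.975, 1.17 and 0.911 CPM (-4.23 ± 0.50, adjusted p = 1.6e-05). Ngfr was lower in KO#2 than in KO#1 (0.521, 1.25 and 4.61 CPM, difference -2.10, adjusted p = 0.0224), while Camk2n1 was not called between the clones (0.57, adjusted p = 0.474). The last of the 10 was Rpl29, a protein of the large ribosomal subunit, which fell from 349, 490.3 and 440.1 CPM to 22.6, 41.7 and 23.1 CPM (-3.87 ± 0.41, adjusted p = 4.33e-06). Of 80 genes of cytosolic ribosomal proteins, a list added after the data were seen, 0 rose and 19 fell, with a median of -0.44, against 16.6% of all genes tested that fell. There were 17 lower genes in the GC-corrected fit, and 6 genes of this list were called in both fits.

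Among the 10 largest rises, 2 genes had 0 counts in all wt libraries. Gm4340 was at 11.6, 13.3 and 11 CPM in KO#2, at least 23.8-fold higher, and Gm15023 was at 4.79, 8.46 and 2.73 CPM, at least 10.6-fold higher. Amd2, a copy of the gene for S-adenosylmethionine decarboxylase, was at 0, 0.184 and 0 CPM in wt cells and 11.2, 12.6 and 11.8 CPM in KO#2, a ratio of 153-fold (95% counting interval 42.3 to 1267). Its KO#2 libraries lay close together. Gm7879 and Gm2016 rose from at most 0.184 CPM to 5.97 to 10.8 and 6.18 to 10.9 CPM, with ratios of 99-fold (95% counting interval 27.3 to 819.8) and 75.2-fold (95% counting interval 25.6 to 366). Without wt replicate 2, Gm7879 had 0 counts in the remaining wt libraries, so that the fitted difference (9.89, against 6.50 with all libraries) is no measure of size.

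Baiap2l1, a protein that bends membranes and bundles actin, rose from 2.3, 1.38 and 2 CPM to 116, 118 and 71.7 CPM (5.81 ± 0.38, adjusted p = 4.92e-08 by edgeR). Art3, of the ADP-ribosyltransferase family, rose from 0, 0.551 and 0.334 CPM to 17.8, 19 and 11 CPM (5.38, adjusted p = 4.33e-06). Syt13, an atypical synaptotagmin, rose from 0, 0.643 and 0.0834 CPM to 11.7, 10.7 and 7.19 CPM (4.99, adjusted p = 2.75e-05). In KO#1, Baiap2l1 and Art3 were at 128, 126 and 216 CPM and 25.6, 36.5 and 21.1 CPM and were not called between the clones, whereas Syt13 was at 1.96, 4.18 and 1.81 CPM and was higher in KO#2 (1.97, adjusted p = 0.00644). C130073F10Rik rose from 0 to 0.275 CPM in wt cells to between 4.17 and 11.7 CPM in KO#2 (5.03). Gm10260, the most abundant of the rises, went from 3.28, 5.6 and 2.25 CPM to 264, 435 and 278 CPM (6.43 ± 0.42, adjusted p = 4.92e-08) and was at 389.6, 434 and 576 CPM in KO#1. The noncoding gene Gm26619, which lies antisense over Gm10260 on chromosome 13, rose too, from 0 to 0.0918 CPM in wt cells to between 6.52 and 22.8 CPM in KO#2, and the reads of such a pair cannot be told apart where strand was not used.

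**Figure D3:**
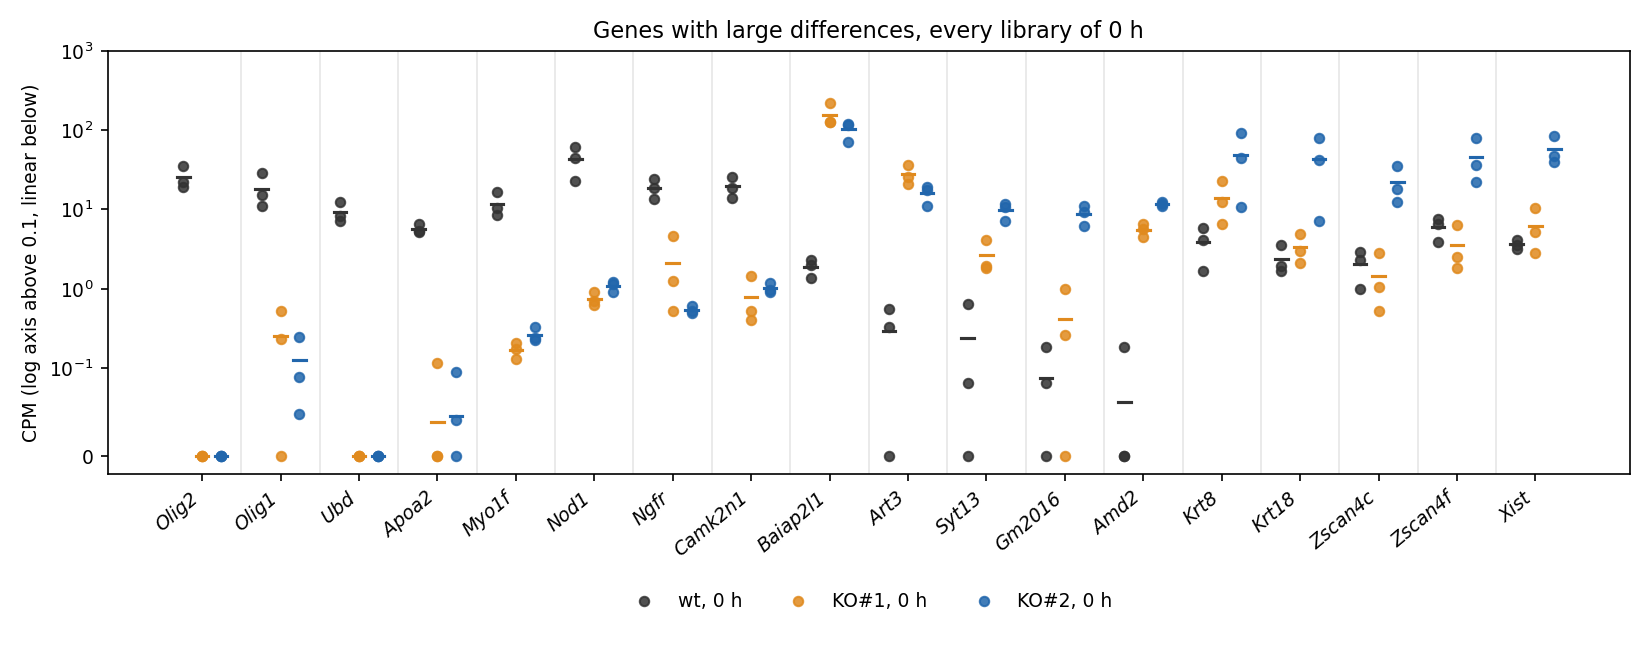
CPM on a log axis (linear below 0.1) of genes with large falls (Olig2 to Camk2n1), large rises (Baiap2l1 to Amd2), and Krt8, Krt18, Zscan4c, Zscan4f and Xist in every 0 h library of wt cells (black), KO#1 (orange) and KO#2 (blue), with a bar at each group mean. From Olig2 to Camk2n1 both KO clones lie below wt cells, with Ngfr more spread in KO#1, while for Krt18, Zscan4c, Zscan4f and Xist the KO#2 points stand apart from both wt cells and KO#1.

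Over the whole table, 173 called genes had 0 counts in the 3 wt libraries and 25 had 0 counts in the 3 KO#2 libraries. Of these, 6 reached at least 5 CPM in every KO#2 library and 2, Olig2 and Ubd, in every wt library. The libraries of KO#2 are deeper than those of wt cells, and with at least 1 count 22742, 23011 and 21963 genes were detected in them against 15778, 18683 and 18893 in wt cells.

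The most abundant genes that changed by at least 1 on the log2 scale included housekeeping and identity genes. Gapdh, an enzyme of glycolysis, fell from 2773, 2375 and 2865 CPM to 891, 846 and 880.3 CPM (-1.61 ± 0.25, adjusted p = 0.000198 by edgeR), and Eno1, an enolase of the same pathway, from 1224, 1140.0 and 1149 CPM to 357, 297 and 472 CPM (-1.64, adjusted p = 0.00044). The libraries of each group lay close together. Apoe, a lipid carrier, fell from 1096 to 1554 CPM in wt cells to between 507 and 639 CPM in KO#2 (-1.24), but was not called in the GC-corrected fit (adjusted p = 0.108). Rpl13a, of the large ribosomal subunit, fell from 1444 to 2346 CPM in wt cells to between 718 and 1192 CPM in KO#2 (-1.04), a call that was lost in the GC-corrected fit (adjusted p = 0.0534) and without wt replicate 2 or KO#2 replicate 1 (up to 0.0525).

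On the side of the rises, Ahnak, a very large scaffold protein, went from 402, 361 and 422 CPM to 1283, 1249 and 1085 CPM (1.61 ± 0.29, adjusted p = 0.000691 by edgeR). Usp9x, an X-linked deubiquitinase, rose from 299 to 581 CPM in wt cells to between 1532 and 1698 CPM in KO#2 (1.79), and Macf1, which links actin to microtubules, from 421 to 628 CPM in wt cells to between 871 and 1423 CPM in KO#2 (1.14). The calls of Usp9x and Macf1 were lost in the GC-corrected fit (adjusted p = 0.0868 and 0.104). Hsp90aa1, an inducible chaperone, rose from 1032 to 2232 CPM in wt cells to between 3410.0 and 6080.0 CPM in KO#2 (1.61), but was not called in the GC-corrected fit (adjusted p = 0.156) or without wt replicate 1, wt replicate 3 or KO#2 replicate 2 (up to 0.0832).

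Among the long noncoding RNA genes, H19, the imprinted transcript next to Igf2, rose from 36.4, 12.8 and 6.84 CPM in wt cells to 295, 656 and 49.6 CPM in KO#2 (4.23 ± 0.84, adjusted p = 0.00131 by edgeR). The KO#2 libraries spread over a wide range. Gm26825 rose from 0, 0.184 and 0.5 CPM to 15.2, 33.8 and 12 CPM (6.05, adjusted p = 4.22e-07) and was not called in KO#1 (0.78, adjusted p = 0.567). The largest falls of this class were Yam1 (ENSMUSG00000098178), at 35560.0, 10110.0 and 9783 CPM in wt cells and 2920.0, 1247 and 2428 CPM in KO#2 (-3.07, and -2.21 without wt replicate 1), E330020D12Rik (-2.72) and Gm20628 (-2.54).

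The identity genes of the iPSCs were present in both groups, and some differed. Of 12 genes of naive pluripotency, 2 rose and 4 fell in KO#2 (median -0.55), and of 9 core pluripotency genes 0 rose and 4 fell (median -0.43), where 21.5% of all genes tested rose and 16.6% fell. Zfp42, also named Rex1 and the usual marker of the naive state, rose from 38, 46 and 43.6 CPM to 123, 169 and 99.8 CPM (1.61 ± 0.27, adjusted p = 0.000388 by edgeR). Dppa3, a maternal factor found in naive cells and germ cells, rose from 1.42 to 3.21 CPM in wt cells to between 4.36 and 14.1 CPM in KO#2 (2.00), a call lost in the GC-corrected fit (adjusted p = 0.0627) and without wt replicate 3 (0.0549). Klf2, a Krüppel-like factor of the naive network, fell from 343, 146 and 227 CPM to 86.5, 58.6 and 69.9 CPM (-1.73, adjusted p = 0.00174). In Zfp42 and Klf2 the groups were separate. The factors Klf4, Klf5 and Esrrb were lower with weaker support, at differences of -1.09, -1.28 and -1.11. Klf4 lost its call without any one of 5 libraries, all except wt replicate 2 (up to 0.155), and in the GC-corrected fit (0.114), and its groups overlapped. Klf5 lost it without wt replicates 1 or 3 or KO#2 replicates 2 or 3 (up to 0.175), and Esrrb without wt replicate 1 or KO#2 replicate 2 (up to 0.0606). Without wt replicate 1, 1 of the 12 naive genes fell in place of 4.

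Pou5f1, the gene of Oct4, fell from 1465, 1079 and 886 CPM to 472, 539 and 567 CPM (-1.12 ± 0.25, adjusted p = 0.00284 by edgeR), with all KO#2 libraries below all wt libraries, but it was not called in the GC-corrected fit (-0.62, adjusted p = 0.057). Utf1, a chromatin factor of undifferentiated cells, fell from 41.5 to 81 CPM in wt cells to between 20.6 and 23.2 CPM in KO#2 (-1.33) and was likewise not called there (adjusted p = 0.225). Sall4, a zinc finger partner of Oct4, differed by -1.32, a call lost without wt replicate 1 or KO#2 replicate 2 (up to 0.0688). Trim28, the corepressor of KRAB zinc finger proteins, differed by -0.89, a call lost in the GC-corrected fit (0.544) and without any library except wt replicate 2 (up to 0.125). In the GC-corrected fit 1 of the 9 core genes fell, and without wt replicate 1 it was 2.

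Of 10 genes of the formative and primed states, 2 rose and 3 fell (median -0.56), against 38.1% of all genes that were called in either direction. Pou3f1, the gene of Oct6, which rises when naive cells turn into EpiLCs, fell from 7.22, 3.67 and 5.17 CPM to 0.934, 0.72 and 0.576 CPM (-2.76 ± 0.43, adjusted p = 0.000197 by edgeR). Otx2, which acts with Oct4 in primed cells, went the other way, from 1.31, 4.59 and 4.75 CPM to 16.1, 10.3 and 14.8 CPM (1.82, adjusted p = 0.0115), although it was not called in the GC-corrected fit (0.063). Each was clear of the other group in every library. Dnmt3l, the cofactor of de novo DNA methylation, rose from 66.5 to 100.4 CPM in wt cells to between 142 and 211 CPM in KO#2 (0.97), a call lost without wt replicate 2 or KO#2 replicate 3 (up to 0.0681). Lef1 (-1.89) and Zic2 (-1.54), transcription factors of the primed state, were lower. Lef1 lost its call without wt replicate 1, KO#2 replicate 1 or KO#2 replicate 2 (up to 0.126), and Zic2 without KO#2 replicate 2 (0.0597) and in the GC-corrected fit (0.0557).

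In the LIF pathway a receptor-bound kinase rose while several target genes fell. Of 10 genes, 2 rose and 5 fell (median -0.84), beside 21.5% and 16.6% of all genes tested. Jak1, the kinase bound to the LIF receptor, rose from 25.9, 24.4 and 19.6 CPM to 66.5, 54.2 and 53.5 CPM (1.32 ± 0.25, adjusted p = 0.00101 by edgeR), and Il6st, the shared receptor chain gp130, differed by 0.70, a call lost in the GC-corrected fit (0.459) and without wt replicates 2 or 3 or KO#2 replicates 1 or 3 (up to 0.0882). Among the Stat3 targets, the kinase gene Pim1 fell from 203, 129 and 152 CPM to 65.1, 51.5 and 37.5 CPM (-1.65, adjusted p = 0.000211). The homeobox gene Gbx2 fell from 18, 3.12 and 4.34 CPM to 1.1, 0.989 and 1.77 CPM (-2.57, adjusted p = 0.000867), and the difference without wt replicate 1 was -1.56 (adjusted p = 0.00199). For Pim1 and Gbx2, each KO#2 library lay below each wt library, and wt replicate 1 was the highest. The feedback inhibitor Socs3 differed by -1.17, a call lost without wt replicate 1, KO#2 replicate 1 or KO#2 replicate 2 (up to 0.0692) and in the GC-corrected fit (0.113). In that fit 1 gene of this list rose and 2 fell.

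Spry2, a feedback inhibitor of FGF signalling, fell from 159, 97.3 and 144 CPM to 21.9, 19.8 and 17.8 CPM (-2.75 ± 0.26, adjusted p = 1.26e-06 by edgeR, GC-corrected -3.35). The lowest wt library was above the highest KO#2 library by a wide margin, and KO#1 was at 20.3, 12.7 and 9.81 CPM. Of 10 FGF and ERK genes tested, 0 rose and 4 fell (median -0.14), again near 38.1%, the share called over all genes tested. The other 3 were close to the threshold. Fgf4, the ligand, differed by -0.68 and lost its call without any one of the 6 libraries (adjusted p of up to 0.197). Fgfr1, a receptor, differed by -0.89 and lost it in the GC-corrected fit (0.132) and without any library except wt replicate 2 (up to 0.194). Dusp6, a phosphatase of ERK, differed by -0.72 and lost it without wt replicate 3, KO#2 replicate 1 or KO#2 replicate 2 (up to 0.472, with a difference of -0.26 without wt replicate 3), and its groups overlapped.

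Of 11 genes of Wnt signalling, targets and pathway factors together, 2 rose and 8 fell (median -1.51), against 21.5% of all genes tested that rose and 16.6% that fell. In the GC-corrected fit 0 rose and 6 fell, and without wt replicate 1, 1 rose and 3 fell. Notum, a secreted enzyme that inactivates Wnt ligands, fell from 37.4, 11.3 and 15.7 CPM to 1.95, 1.93 and 2.21 CPM (-3.36 ± 0.44, adjusted p = 4.14e-05 by edgeR) without overlap. Sp5, a transcription factor induced by Wnt, was at 8.2, 0.0918 and 1.08 CPM in wt cells and 0.163, 0 and 0 CPM in KO#2 (-5.31, adjusted p = 0.00386). Most of that level came from wt replicate 1, without which the difference was -3.23 (adjusted p = 0.0431), and wt replicate 2 was within the KO#2 range. Without KO#2 replicate 1 the fitted difference was -8.29, which rests on 0 counts in the other KO#2 libraries and is no measure of size. Tcf7l1, a repressor of Wnt targets, differed by -1.77, a call lost in the GC-corrected fit (0.142) and without wt replicates 1 or 3 or KO#2 replicates 2 or 3 (up to 0.187). Ctnnb1, the gene of beta-catenin, was higher by 0.77, a call lost in the GC-corrected fit (0.07) and without wt replicate 1 or KO#2 replicate 2 (up to 0.118). Dkk1, a secreted Wnt inhibitor, was at 0.328, 0 and 0.167 CPM in wt cells and 1.3, 1.48 and 0.384 CPM in KO#2, a ratio of 9.32-fold (95% counting interval 3.07 to 46.2), and its call was lost in the GC-corrected fit (0.103) and without wt replicates 2 or 3 or KO#2 replicates 1 or 2 (up to 0.138).

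Of 10 Nodal and Activin genes, 1 rose and 3 fell (median -0.63), which is near the 38.1% of all genes tested that were called. Skil, an inhibitor of Smad proteins, rose from 17.7, 24.1 and 19.9 CPM to 66.8, 51.5 and 54.7 CPM (1.48, adjusted p = 0.000266 by edgeR) without overlap, but was not called in the GC-corrected fit (0.47, adjusted p = 0.272). The Nodal inhibitors Lefty1 and Lefty2 differed by -1.41 and -1.19, and the inhibitory Smad7 by -1.41. Each of these calls was lost without KO#2 replicate 2, those of Lefty1 and Smad7 also without wt replicate 1, those of Lefty1 and Lefty2 without wt replicate 3 or KO#2 replicate 1, and that of Smad7 without KO#2 replicate 3 (adjusted p-values of up to 0.184, 0.228 and 0.0972). The difference of Lefty2 without wt replicate 3 was -0.61. Lefty1 and Smad7 were not called in the GC-corrected fit (0.211 and 0.0555). The groups overlapped for Lefty2. In that fit 0 members rose and 1 fell.

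Of 14 immediate early genes, which respond within minutes to growth factors, 0 rose and 6 fell (median -0.98), beside 16.6% of all genes tested. The GC-corrected fit had 2 that fell, near the 15.5% of all genes in that fit. Ier2 fell from 241, 62 and 102 CPM to 48.3, 46.3 and 43.6 CPM (-1.54, adjusted p = 0.00331 by edgeR), and the difference without wt replicate 1 was -0.86 (adjusted p = 0.0265). Fos was at 29.5, 32.4 and 177 CPM in wt cells and 21.7, 2.92 and 15.3 CPM in KO#2 (-2.59, adjusted p = 0.00725). Here wt replicate 3 was far above the others, and the call was lost without it (-1.21, adjusted p = 0.129). Fosb (-2.24) and Nr4a1 (-1.14) were not called in the GC-corrected fit (0.0769 and 0.102). Fosb lost its call without wt replicate 3, KO#2 replicate 1 or KO#2 replicate 2 (up to 0.401, with a difference of -1.05 without wt replicate 3), and Nr4a1 without any library except wt replicate 2 (up to 0.0992).

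Targets of p53, a transcription factor activated by DNA damage and other stress, moved in both directions. Of 14 genes, 4 rose and 5 fell (median -0.18), where 21.5% and 16.6% of all genes tested did. Eda2r, a receptor of the tumour necrosis factor family, rose from 10.2, 20.3 and 17 CPM to 105, 113 and 73.7 CPM (2.59 ± 0.37, adjusted p = 0.000108 by edgeR). Trp53inp1, a stress-response cofactor, rose from 49.5, 111 and 76.8 CPM to 394, 513 and 311 CPM (2.35, adjusted p = 0.0017), and Ccng1, cyclin G1, from 65.9 to 89.9 CPM in wt cells to between 242 and 362 CPM in KO#2 (1.87). These 3 genes had separate groups and were higher in KO#2 than in KO#1 as well (1.66, 1.58 and 1.15). Mdm2, the ubiquitin ligase that degrades p53, rose by 1.13, but was not called in the GC-corrected fit (0.094). Trp53, the gene of p53 itself, fell from 298, 156 and 206 CPM to 84.8, 79.8 and 89.5 CPM (-1.37 ± 0.26, adjusted p = 0.00091). Cdkn1a, the cell cycle inhibitor p21, differed by -1.16, a call lost without wt replicate 1 (-0.64, adjusted p = 0.122) or KO#2 replicate 2.

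Of 16 apoptosis genes, 1 rose and 8 fell (median -0.62), and 0 rose and 4 fell in the GC-corrected fit. Of all genes tested, 16.6% fell in the TMM fit and 15.5% in the GC-corrected fit. Pmaip1, the BH3-only protein Noxa, fell from 27.2, 47.5 and 49.8 CPM to 12.2, 13.9 and 10.7 CPM (-1.77, adjusted p = 0.000516 by edgeR). Bak1, which permeabilizes the outer mitochondrial membrane, fell from 50.2, 38.3 and 34.5 CPM to 14.3, 17.9 and 14.3 CPM (-1.40, adjusted p = 0.000307), and Mcl1, an inhibitor of such proteins, from 555 to 603 CPM in wt cells to between 263 and 298 CPM in KO#2 (-1.05). The list's members that fell thus include genes that promote cell death and a gene that opposes it. Bax, a relative of Bak1, fell by 1.03 on the log2 scale, but not in the GC-corrected fit (0.868). Bcl2 was under 1 CPM in all 6 libraries, and its call, the rise in this list, was lost in the GC-corrected fit (0.154) and without any one of the libraries (up to 0.147).

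Of 11 primitive endoderm genes, 5 rose and 1 fell (median 0.77), and 5 rose and 0 fell both in the GC-corrected fit and without wt replicate 1. The shares of all genes that rose were 21.5% in the TMM fit and 9.74% in the GC-corrected fit. Gata6, the factor that specifies this lineage, was at 0.328, 0.0918 and 0.0834 CPM in wt cells and 2.03, 1.26 and 0.624 CPM in KO#2, a ratio of 11.6-fold (95% counting interval 3.85 to 57.4). Pdgfra, a receptor on these cells, rose from 0.328, 0.826 and 0.917 CPM to 3.09, 2.92 and 3.88 CPM (2.08, adjusted p = 0.00802 by edgeR). The endocytic adaptor Dab2 rose by 1.88, and the collagen chain Col4a2 by 1.67, a call lost without wt replicate 3 or KO#2 replicate 1 (up to 0.058). Col4a2 reached 28.1 to 57.4 CPM in KO#2. Collagen genes and Pdgfra are also expressed by fibroblasts. Sox7 was under 2 CPM in every library, and its call as lower was lost in the GC-corrected fit (0.0507) and without wt replicates 1 or 3 or KO#2 replicates 1 or 2 (up to 0.158).

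The keratins Krt8 and Krt18, intermediate filament proteins of simple epithelia and of the trophectoderm, rose together. Krt18 went from 3.61, 1.93 and 1.67 CPM in wt cells to 42.5, 79.2 and 7.1 CPM in KO#2 (4.30 ± 0.73, adjusted p = 0.000417 by edgeR), and its neighbour Krt8 from 5.9, 1.65 and 4.17 CPM to 44.7, 92 and 10.8 CPM (3.76 ± 0.79, adjusted p = 0.00189). Their starts lie 23698 bases apart on chromosome 15, and Gm36026 lies antisense over Krt8. KO#2 replicate 3 was the lowest of the KO#2 libraries for both genes but still above all wt libraries. These were the 2 called members of the 7 trophectoderm genes (21.5% of all genes tested rose), and the median of that list is a gene with 3 counts in wt cells, so it is not given. Of 5 neural genes 1 rose and 1 fell (median -0.25), near the 38.1% of all genes called. Sox1, a factor of neural progenitors, fell from 14.4, 7.89 and 5.59 CPM to 2.88, 2.47 and 2.64 CPM (-1.75, adjusted p = 0.00146), and Nes was higher by 0.72, a call lost without any library except KO#2 replicate 3 (up to 0.102). Of the 2 primitive streak genes that could be tested, Eomes, a T-box factor, fell from 15.4, 6.79 and 12 CPM to 4.06, 2.56 and 2.49 CPM (-1.87, adjusted p = 0.000709) and Gsc was not called.

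Zscan4 genes, which are active in the 2-cell embryo and are transiently active in rare pluripotent cells, rose in KO#2. Zscan4f (chr7:11397915-11402318, plus strand) was at 7.54, 6.61 and 3.84 CPM in wt cells and 21.9, 35.9 and 78.4 CPM in KO#2 (2.96 ± 0.64, adjusted p = 0.00217 by edgeR). Zscan4c (chr7:11005745-11010547, plus strand) was at 2.3, 2.94 and 1 CPM and 12.4, 17.9 and 35.8 CPM (3.44 ± 0.69, adjusted p = 0.00135), and Zscan4d (chr7:11161374-11166159, minus strand) at 1.97, 1.38 and 0.917 CPM and 6.91, 13 and 24.5 CPM (3.49 ± 0.77, adjusted p = 0.00261). KO#2 replicate 3 was the highest for each, and no wt library reached KO#2. All 3 were higher in KO#2 than in KO#1 (differences of 3.59 to 4.03), and KO#1 was not called against wt cells. They were the called members among 7 genes of the 2-cell-like state (21.5% of all genes tested rose). In their transcripts 70.9% (Zscan4c), 39.0% (Zscan4d) and 84.7% (Zscan4f) of windows of 50 bases also occur in those of the other copies, so that their counts are uncertain. Shown here are the bases before the transcript starts in RefSeq's GRCm38.p6 annotation, with capitals at the bases that differ between Zscan4c and Zscan4f and, in Zscan4d, from Zscan4c.
Zscan4c, chr7:11005495-11005744, plus strand: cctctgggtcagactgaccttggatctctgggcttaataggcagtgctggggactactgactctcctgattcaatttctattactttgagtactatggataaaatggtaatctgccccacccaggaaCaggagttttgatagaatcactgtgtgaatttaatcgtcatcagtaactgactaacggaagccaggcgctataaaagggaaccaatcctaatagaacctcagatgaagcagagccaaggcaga
Zscan4d, chr7:11166160-11166398, minus strand: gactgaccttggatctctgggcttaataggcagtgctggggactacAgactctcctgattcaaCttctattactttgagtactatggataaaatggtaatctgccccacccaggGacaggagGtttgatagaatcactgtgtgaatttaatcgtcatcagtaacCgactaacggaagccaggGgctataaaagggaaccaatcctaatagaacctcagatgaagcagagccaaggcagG
Zscan4f, chr7:11397665-11397914, plus strand: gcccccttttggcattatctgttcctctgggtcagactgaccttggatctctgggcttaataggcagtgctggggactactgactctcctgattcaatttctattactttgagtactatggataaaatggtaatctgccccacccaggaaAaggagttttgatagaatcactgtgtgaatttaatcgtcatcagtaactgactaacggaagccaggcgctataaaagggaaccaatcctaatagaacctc
Zscan4c and Zscan4f differ at 1 of 227 shared bases (99.6% identity), and Zscan4d differs from Zscan4c at 7 of 239 (97.1%).

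Of 15 germline genes held silent by DNA methylation, 5 rose and 0 fell (median 1.31), beside 21.5% of all genes tested that rose, but 2 rose in the GC-corrected fit, near the 9.74% of all genes there, and 2 without wt replicate 1. Stk31, a kinase of germ cells, rose from 0.656, 4.13 and 1.42 CPM to 11.5, 14.5 and 10.8 CPM (2.41, adjusted p = 0.00723 by edgeR), without overlap. Tex101, a surface protein of germ cells, went from 0, 0.551 and 0.0834 CPM to 3.05, 4.86 and 1.05 CPM (3.46, and 5.35 without wt replicate 2), a call lost without wt replicate 3 (0.0501). Asz1 (2.50) and Mael (1.47), which act in the silencing of transposons, were not called in the GC-corrected fit (0.166 and 0.199) or without wt replicate 1, wt replicate 3 or KO#2 replicate 2 (up to 0.12 and 0.0922), nor Asz1 without KO#2 replicate 1.

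Of 27 imprinted genes tested, 9 rose and 3 fell (median 0.60), against 21.5% and 16.6% of all genes tested in the TMM fit. In the GC-corrected fit 6 rose and 2 fell, against 9.74% and 15.5% of all genes there. Kcnq1ot1, the long antisense transcript of the Kcnq1 domain, rose from 55.1, 37.9 and 74.9 CPM to 459.7, 235 and 499 CPM (2.83 ± 0.42, adjusted p = 0.000143 by edgeR). Phlda2, a gene of the same domain, fell from 10.5, 5.78 and 6 CPM to 1.42, 1.75 and 1.2 CPM (-2.30, adjusted p = 0.000218). Neither overlapped between the groups, and Kcnq1ot1 differed between the clones (2.47, adjusted p = 0.000684) whereas Phlda2 was lower in both (0.912, 1.25 and 1.46 CPM in KO#1). Peg10, a placental gene derived from a retrotransposon, rose from 67.9, 16.3 and 48.7 CPM to 306, 154 and 168 CPM (2.26, adjusted p = 0.0047), and Zim1, a zinc finger gene, was at 0.328, 0.0918 and 0 CPM and 1.42, 1.03 and 1.1 CPM, a ratio of 15.5-fold (95% counting interval 4.16 to 130.3). Magel2 fell by 2.29 and Nnat was at a difference of -1.81; both lay under 2 CPM, and Nnat lost its call in the GC-corrected fit (0.128) and without wt replicates 1 or 2 or KO#2 replicates 1 or 2 (up to 0.177).

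Xist, the RNA that coats and silences an X chromosome, rose from 3.61, 3.21 and 4.17 CPM in wt cells to 85.3, 47.8 and 39.2 CPM in KO#2 (3.96 ± 0.49, adjusted p = 2.75e-05 by edgeR). All KO#2 libraries were far above the wt libraries, and KO#1, at 10.3, 5.22 and 2.86 CPM, was not called against wt cells (adjusted p = 0.453) and was lower than KO#2 (difference 3.25, adjusted p = 0.000306). The partner transcript Tsix lies antisense over Xist. The Y-linked genes Ddx3y and Eif2s3y were at 0.328, 0.459 and 0.584 and 0, 0.459 and 0 CPM in wt cells and at 1.42, 2.65 and 4.22 and 0.65, 1.44 and 1.68 CPM in KO#2. Their differences of 2.48 and 2.67 were called, but not in the GC-corrected fit (0.134 and 0.228), and Ddx3y lost its call without KO#2 replicate 3 (0.0502) and Eif2s3y without wt replicates 1 or 3 or KO#2 replicates 2 or 3 (up to 0.177). Without wt replicate 2 the fitted difference of Eif2s3y was 7.28, which rests on 0 counts in the remaining wt libraries and is no measure of size. Of the 5 sex-linked genes tested, 3 rose and 0 fell (median 2.48), beside 21.5% of all genes tested that rose. Which cells in the culture, the iPSCs or the feeders, carried the Xist and Y-linked RNA was not tested.

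Protein-coding genes of the X chromosome were shifted as a group. Of 541, 191 rose and 21 fell, with a median difference of 0.86, against 2549 and 2553 of 13487 autosomal genes with a median of -0.04. X-linked genes took 4.44%, 4.72% and 3.61% of protein-coding counts in KO#2 and 2.16%, 2.77% and 2.66% in wt cells, without overlap. In the GC-corrected fit the medians were 0.25 for the X chromosome and -0.21 for the autosomes. In that fit 59 genes of the X chromosome rose (10.9%) and 19 fell, against 1004 (7.44%) and 2331 autosomal genes. At 24 h the medians were 0.27 and 0.13 (-0.15 and -0.11 in the GC-corrected fit), so the X chromosome was not above the autosomes there after GC correction. In KO#1 at 0 h they were 0.05 and 0.03. Among the autosomes of KO#1, chromosome 8 stood apart with a median of 0.51, and the median of KO#2 minus KO#1 there was -0.78. For KO#2 minus wt cells at 0 h the autosomes spread between -0.39 for chromosome 17 and 0.38 for chromosome 1 in the TMM fit, and from -0.29 to 0.04 after GC correction.

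**Figure D4:**
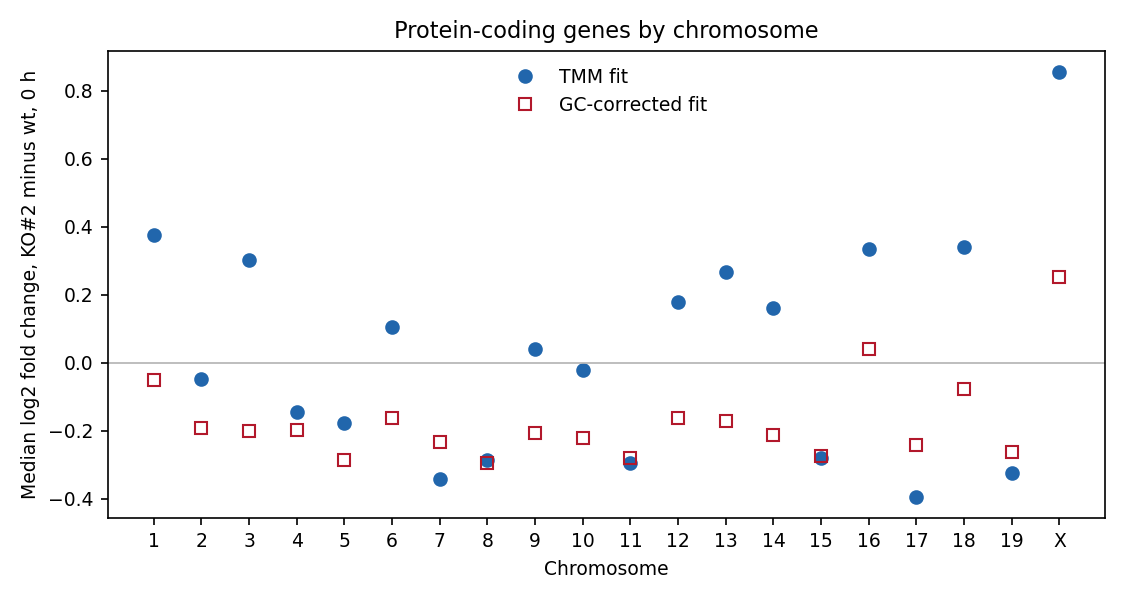
Median log2 fold change of KO#2 minus wt cells at 0 h (vertical axis) over the protein-coding genes of each chromosome (horizontal axis), in the TMM fit (filled circles) and the GC-corrected fit (open squares). The X chromosome is the highest of those drawn in both, at 0.86 and 0.25, and the spread among the autosomes is narrower in the GC-corrected fit.

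Of 48 chromatin regulators in 4 lists, 19 were called (39.6%), near the 38.1% of all genes tested. Of 9 genes of DNA methylation, 2 rose and 3 fell (median -0.05). Tdg, the glycosylase that removes oxidized methylcytosine, fell from 53.5, 49.6 and 51.8 CPM to 17.5, 13.9 and 17.8 CPM (-1.65 ± 0.21, adjusted p = 3.25e-05 by edgeR). Uhrf1, which brings Dnmt1 to replicating DNA, fell from 579, 459.8 and 479 CPM to 191, 185 and 269 CPM (-1.23, adjusted p = 0.00409). Both were separate between the groups. The maintenance methyltransferase Dnmt1 fell by 0.96 on the log2 scale, a call lost without wt replicate 1 (0.0578). Tet2, which oxidizes methylcytosine, was higher by 0.95, a call lost in the GC-corrected fit (0.531) and without any library except KO#2 replicate 2 (up to 0.097).

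Of 11 genes of Polycomb repressive complex 2 (PRC2), which methylates lysine 27 of histone H3, 5 rose and 0 fell (median 0.45), beside 21.5% and 16.6% of all genes tested. In the GC-corrected fit 1 rose and 1 fell. Mtf2, an accessory subunit that recruits the complex to CpG islands, rose from 65.6, 137 and 86.7 CPM to 353, 478 and 359 CPM (2.03 ± 0.45, adjusted p = 0.00251 by edgeR) and was called in both fits. The core subunit Suz12 rose from 104, 144 and 119.8 CPM to 308, 232 and 312 CPM (1.21, adjusted p = 0.000539), and the histone-binding Rbbp7 from 68.5 to 105 CPM in wt cells to between 192 and 318 CPM in KO#2 (1.43). Each KO#2 library was above each wt library, but neither gene was called in the GC-corrected fit (adjusted p = 0.488 and 0.0664). Eed was at 0.91, a call lost in that fit (0.226) and without wt replicates 1 or 3 or KO#2 replicates 2 or 3 (up to 0.151). The catalytic subunit Ezh2 was not called (0.45).

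Of 17 genes of PRC1, which ubiquitinates histone H2A, 0 rose and 4 fell (median -0.63), beside 21.5% and 16.6% of all genes tested. In the GC-corrected fit 0 rose and 5 fell, beside 9.74% and 15.5% of all genes there. Pcgf2, a subunit that defines 1 form of the complex, fell from 78.4, 41.8 and 41.2 CPM to 19.8, 8.59 and 15 CPM (-1.88, adjusted p = 0.00235 by edgeR). Cbx2, which compacts chromatin, fell from 25.9 to 46.2 CPM in wt cells to between 11.5 and 17.3 CPM in KO#2 (-1.39) and the ligase Ring1 from 6.88 to 11.5 CPM in wt cells to between 3.4 and 3.49 CPM in KO#2 (-1.25). In these 3 genes the groups did not overlap. Cbx7, the main chromobox protein of pluripotent cells, was at -0.86, a call lost in the GC-corrected fit (0.125) and without wt replicates 1 or 3 or KO#2 replicates 1 or 2 (up to 0.116).

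Of 11 genes of methylation of lysine 9 of histone H3 and HP1, 1 rose and 4 fell (median -0.09), beside 21.5% and 16.6% of all genes tested. In the GC-corrected fit 0 rose and 4 fell, beside 9.74% and 15.5% of all genes there. The methyltransferase Setdb1 fell from 232, 170.0 and 209.6 CPM to 103, 95.5 and 114 CPM (-0.97, adjusted p = 0.00331 by edgeR) and the histone chaperone Daxx from 67.2, 44.4 and 49.3 CPM to 25.8, 27.2 and 26.6 CPM (-1.01, adjusted p = 0.00187). Atrx, an X-linked remodeller that works with Daxx, rose from 130.5, 181 and 145 CPM to 512, 472 and 413 CPM (1.61, adjusted p = 9.63e-05), but was not called in the GC-corrected fit (0.104). Daxx and Atrx thus moved in opposite directions in the TMM fit, each without overlap. Ehmt2, the methyltransferase G9a, was at -1.09, a call lost in the GC-corrected fit (0.294) and without wt replicate 1 (-0.63, adjusted p = 0.115).

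Of 14 genes of the nuclear lamina and inner nuclear membrane, 1 rose and 4 fell (median -0.42), near the share called over all genes tested (38.1%). Of the B-type lamins, filament proteins that line the nuclear envelope, Lmnb1 went from 467, 238 and 246 CPM to 165, 116 and 138 CPM (-1.18 ± 0.32, adjusted p = 0.00908 by edgeR), and Lmnb2 from 125, 71.4 and 68 CPM to 34.1, 37 and 46.7 CPM (-1.16 ± 0.28, adjusted p = 0.00453). The KO#2 libraries were below the wt libraries in both, with wt replicate 1 the highest, and the call of Lmnb1 was lost without that library (0.0574). Syne1, which links the nucleus to the cytoskeleton, rose from 1.28 to 2.62 CPM in wt cells to between 5.53 and 10.6 CPM in KO#2 (2.17). Banf1, which bridges DNA and the envelope, was at -0.96, a call lost without KO#2 replicate 1 (0.0555) and in the GC-corrected fit (0.222), and Tor1aip1, a membrane protein that binds lamins, was at -0.82, a call lost without wt replicate 3 or KO#2 replicate 2 (up to 0.0807).

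Of 18 glycolysis genes, 0 rose and 10 fell (median -0.82), against 16.6% of all genes tested that fell. In the GC-corrected fit 4 fell, where 15.5% of all genes did, and 6 fell without wt replicate 1. Besides Gapdh and Eno1, Gpi1, the isomerase of glucose 6-phosphate, fell from 555, 442 and 554 CPM to 175, 136 and 164 CPM (-1.71 ± 0.24, adjusted p = 0.000103 by edgeR), with no overlap. Slc16a3, a lactate exporter, was at -1.10, a call lost in the GC-corrected fit (0.165) and without wt replicates 1 or 3 or KO#2 replicates 1 or 2 (up to 0.135). Gapdh, Eno1 and Gpi1 were called in the GC-corrected fit too, at -1.53, -1.19 and -1.66.

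Of 13 protein-coding genes of the mitochondrial genome, 0 rose and 4 fell (median -0.87), and 9 fell in the GC-corrected fit, beside 16.6% and 15.5% of all genes. Their summed level overlapped between the groups, at 4592, 12191 and 10607 CPM in the wt libraries and 8882, 11278 and 7538 CPM in the KO#2 libraries. mt-Nd3, a subunit of complex I, fell from 138, 126 and 38 CPM to 22, 14.1 and 16.4 CPM (-2.52 ± 0.47, adjusted p = 0.000897 by edgeR). The other 3, mt-Nd6 (-2.46, and -1.40 without wt replicate 1), mt-Nd2 (-1.24) and mt-Atp8 (-1.10), did not overlap between the groups either. Their calls were lost without KO#2 replicate 3, that of mt-Nd6 also without wt replicate 1 or KO#2 replicate 2, that of mt-Nd2 without wt replicates 2 or 3 or KO#2 replicate 2, and that of mt-Atp8 without wt replicate 3 or KO#2 replicate 1 (adjusted p of up to 0.173, 0.126 and 0.0797).

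Of 22 cholesterol synthesis genes, 2 rose and 6 fell (median -0.27), near the 38.1% called over all genes tested, and 1 rose and 3 fell in the GC-corrected fit. Dhcr7, the enzyme of the last step, fell from 19, 18.6 and 17.7 CPM to 7.35, 4.68 and 6.57 CPM (-1.57, adjusted p = 0.00133 by edgeR), and Tm7sf2, a sterol reductase, from 12 to 14.5 CPM in wt cells to between 5.04 and 7.29 CPM in KO#2 (-1.01). Srebf2, the transcription factor of the pathway (-1.50), lost its call without wt replicate 1 or KO#2 replicate 2 (up to 0.0734). Hmgcs1, an early enzyme of the pathway, was higher by 0.95, a call lost in the GC-corrected fit (0.8) and without wt replicates 1 or 3 or KO#2 replicates 1 or 2 (up to 0.14).

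Of 19 genes of antigen presentation and interferon response, 1 rose and 3 fell (median -0.04), fewer than the 38.1% called over all genes tested. Psmb10, a subunit of the immunoproteasome, fell from 5.58, 7.25 and 3.84 CPM to 0.65, 1.71 and 1.97 CPM (-1.95, adjusted p = 0.00166 by edgeR), without overlap. Tap1, a peptide transporter, was at 1.65, a call lost without wt replicates 1 or 2 or KO#2 replicate 1 (up to 0.0726). Ifitm3 (-1.03) and Irf1 (-0.83) were close to the threshold. Ifitm3 lost its call without wt replicates 2 or 3 or KO#2 replicates 1 or 3 (up to 0.183) and Irf1 without any one of the 6 libraries (up to 0.0966).

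Fibroblast genes, which can come from the feeder layer, were partly higher in KO#2. Of 14, 7 rose and 0 fell (median 1.39), 8 rose in the GC-corrected fit and 5 without wt replicate 1, beside 21.5% of all genes in the TMM fit and 9.74% in the GC-corrected fit. Their summed level was 497, 328 and 148 CPM in wt cells and 484, 457 and 1147 CPM in KO#2, so that KO#2 replicate 3 stood above all others and the other libraries overlapped between the groups. In KO#1 the sum was 697, 502 and 224 CPM. Dcn, the proteoglycan decorin, had 0 counts in all wt libraries and was at 3.17, 4.54 and 4.41 CPM in KO#2, at least 8.03-fold higher (adjusted p = 0.000163 by edgeR). Lox, an enzyme that crosslinks collagen, rose from 30.5, 33.8 and 12.3 CPM to 118, 119 and 156 CPM (2.37 ± 0.39, adjusted p = 0.000308). Lum, a proteoglycan related to Dcn, was at 0, 0 and 0.0834 CPM and 0.569, 1.03 and 3.36 CPM. For Dcn, Lox and Lum no wt library reached KO#2. Col6a1, a chain of collagen VI, overlapped between the groups, and its call (1.71) was lost without wt replicate 1, wt replicate 3 or KO#2 replicate 3 (up to 0.401, with a difference of 0.61 without KO#2 replicate 3). The part of the feeder cells in the differences of Lox, Col4a2, Pdgfra, Xist and other genes that fibroblasts express was not tested.

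Processed pseudogenes, copies of mRNAs pasted into the genome, had the highest median difference of the gene classes with at least 50 tested genes. Of 761 tested, 454 rose and 8 fell, a median difference of 2.24, and 400 rose in the GC-corrected fit. They took 0.687%, 0.994% and 0.737% of counts in KO#2 and 0.274%, 0.128% and 0.103% in wt cells. In KO#1 at 0 h the share was 0.475%, 0.515% and 0.732%, above every wt library and overlapping KO#2. Against the same wt libraries, 93 of the 761 rose in KO#1, where 3.99% of all genes tested did. Other classes outside mature mRNA moved with the groups as well. Genes of the annotation class TEC (loci still to be experimentally checked) and sense-intronic transcripts together took 0.215%, 0.106% and 0.198% of counts in KO#2 and 0.0423%, 0.0402% and 0.0650% in the wt libraries. Of 443 TEC genes 133 rose and 5 fell (median 1.45), against 20 and 8 in the GC-corrected fit, and of 74 sense-intronic genes 14 rose and 0 fell (median 1.46), against 0 and 0. Of 131 snoRNA genes 5 rose and 30 fell (median -0.74). The part of RNA or library quality in these differences was not tested. Reads of such copies can be confused with those of the parent gene, so 138 copies whose symbols name a tested parent were compared with it, a set chosen after the data were seen. Of the copies, 99 rose and 0 fell (median 2.40), while 25 of the 95 parents fell and 8 rose (median -0.35). The share of the pair's counts that fell on the copy was higher in all KO#2 libraries than in all wt libraries for 114 pairs. Whether mapping of reads to near-identical sequences entered these shares was not tested.

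Some copies were high in both KO clones. Rpl34-ps1 took 0.685%, 0.528% and 0.437% of the counts on itself and Rpl34 in wt cells, 46.2%, 36.5% and 43.7% in KO#2 and 50.9%, 50.2% and 37.0% in KO#1. Rpl3-ps1 took 1.11%, 1.17% and 0.924% of its pair in the wt libraries, and its share was 21.4%, 24.3% and 23.1% in KO#2. Tdgf1-ps1, a copy of the gene of the Nodal co-receptor Cripto, took 0%, 0.146% and 0.205% in the wt libraries, and its share was 7.40%, 6.85% and 7.47% in KO#2. In these pairs the share of the copy went from at most 1.17% in the wt libraries to between 6.85% and 46.2% in KO#2. Others rose in KO#2 and were not called in KO#1. Rps6-ps4 took 1.35%, 1.95% and 1.63% of its pair in wt cells, 1.57%, 2.48% and 1.91% in KO#1 and 8.41%, 9.36% and 8.58% in KO#2. Rpl10a-ps1 took 0.883%, 1.06% and 1.04% in the wt libraries, and its share was 6.24%, 7.29% and 5.88% in KO#2. These 2 copies differ from the former in sequence, since every window of 50 bases in them also occurs in a transcript of the parent. Of the 21 copies that rose in both clones, 0 had every window in the parent (median 60.1% of windows), and of the 78 that rose in KO#2 and were not called in KO#1, 15 did (median 64.5%). Among the 39 copies not called in KO#2, 2 did (median 58.7%), so the medians of these sets lay close together.

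**Figure D5:**
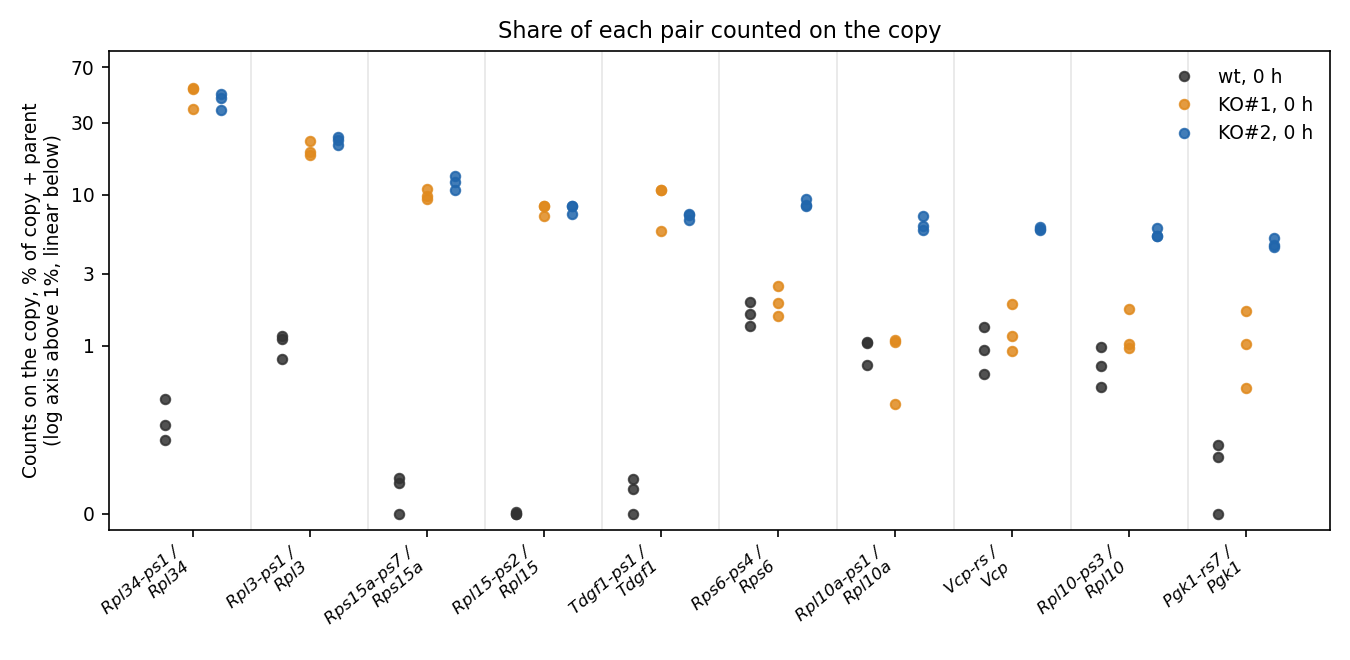
Share of the counts on a copy and its parent gene that fell on the copy, in percent (vertical axis, log above 1%, linear below), for 10 pairs (horizontal axis) in every 0 h library of wt cells (black), KO#1 (orange) and KO#2 (blue). From Rpl34-ps1 to Tdgf1-ps1 both clones lie above wt cells, while from Rps6-ps4 to Pgk1-rs7 the KO#2 points lie above those of wt cells and KO#1.

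The libraries of the 24 h time point share no sample with those of 0 h. There 6197 genes were called between wt cells and the libraries labelled KO#2 (37.3%), and 3206 were called at both time points with the same sign, 1907 higher and 1299 lower. That is 50.7% of the 0 h calls and 51.7% of the 24 h calls, while 69 genes were called with opposite signs. Called again with the same sign were Hmga1 (-3.27 at 24 h), Olig1 (-6.38), Nod1 (-4.77), Myo1f (-5.28), Myo7a (-3.41), Rpl29 (-4.50), Gm10260 (6.18), Baiap2l1 (6.85) and Xist (3.57), and Olig2 and Ubd were called at both times. Genes that were called at 0 h and not at 24 h include Spry2 (-0.61, adjusted p = 0.0575 by edgeR), Lin28a (-0.64, adjusted p = 0.285), Igf2bp2 (-0.43), Krt8 (0.48), Krt18 (-0.78) and Zscan4c (0.23). The difference between the time points was itself tested by an interaction term, in which 244 of 16619 genes (1.47%) were called. Of the genes just listed as not called at 24 h, Spry2 and Krt18 were called in it. Lin28a, Igf2bp2, Krt8 and Zscan4c were not, so a change between the time points was not shown for them. In the GC-corrected fit 2317 genes were called at both time points with the same sign, 55.6% of its 0 h calls and 37.1% of its 24 h calls.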

How the data were processed

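Counts per gene from stranded total RNA libraries of 18 samples were used as the authors deposited them, whole numbers without normalization for 45706 genes. According to the methods of the study, paired-end NovaSeq reads were trimmed with Trim Galore, freed of ribosomal RNA reads, aligned with STAR to GRCm38 and quantified with Salmon or StringTie, with duplicates marked by Picard. The submitters' processing notes name DESeq2. The annotation release and the use of strand in the counting are not given in the sources used here. Total counts at 0 h lay between 3466436 (wt replicate 1) and 16995756 (KO#2 replicate 1), and none of the 153 library pairs was identical.

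Genes were filtered with filterByExpr at a minimum count of 10, scaled by TMM and tested with the quasi-likelihood test of edgeR 4.0.16 in R 4.3.3. The model held all 18 libraries in 6 groups, so that they share a dispersion (common value 0.0970, prior degrees of freedom 6.39). P-values were adjusted by the Benjamini-Hochberg method over 16619 genes with a threshold of 0.05. The SE of a difference was derived from its F statistic. Nothing in the sources says how the replicate cultures were separated, so the p-values measure the spread between these libraries. GC content is that of the longest GENCODE M21 transcript, matched by gene ID for 45143 of 45706 genes, and the GC correction fitted a spline with 5 degrees of freedom in each library. The M21 release was also the source of gene positions, types and overlaps, and RefSeq's GRCm38.p6 tables of the promoter sequences, which hold 111 of the 154 named genes.

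The groups compared and the gene lists were chosen with earlier results of these data known. Named genes were Hmga2 and Hmga1, the 10 largest rises and falls, the 5 most abundant rises and falls, the 3 largest rises and falls of long noncoding RNA genes, and from each list up to 4 called genes in each direction with the largest differences. Igf2bp1, Igf2bp3, Lin28b, Ezh2 and Gsc were named after their values were seen. A few genes that meet the rule are not reported here. The copy pairs, the ribosomal protein list, the chromosome and gene class summaries and a run without pseudogenes were chosen after the data were seen. Ratios of genes with 1 to 3 counts in a group carry 95% exact counting intervals, which cover counting error only. On simulated counts for this comparison (15528 genes), the test recovered 84.7% of 98 genes changed by 2 on the log2 scale and 18.9% of 90 changed by 1, and called 0.0261% of 15340 unchanged genes. The simulated counts had the same dispersion for every gene and no GC trend, so they cannot give the rate of false calls in the real libraries. Alternatives were DESeq2 1.42.0, other scalings and filters, a replicate block, GC-corrected offsets, stricter thresholds, fewer libraries, thinned counts and each library left out.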

Additional observations from a re-analysis of the deposited data

Results flagged for a closer look

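For 10 of the named genes the difference between KO#2 and wt cells was not the same at 24 h as at 0 h by an interaction term in the edgeR fit, with p-values adjusted over all genes tested. The labels give EpiLC induction between these time points, and Hmga2 was not called at 24 h between the libraries labelled KO#2 and wt cells, with 2 of the 3 KO#2 libraries below and 1 above every wt library. Each value here is the log2 fold change at 24 h minus that at 0 h.

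Eomes turned from lower (-1.87) at 0 h to higher (2.45) at 24 h, a change of 4.33 (adjusted p = 0.000437). The Krüppel-like factors moved in the same sense, by 2.94 for Klf4 (-1.09 and 1.86, adjusted p = 0.0231), 3.21 for Klf5 (-1.28 and 1.92, adjusted p = 0.0260) and 2.11 for Klf2 (-1.73 and 0.37, adjusted p = 0.0447). The fall of Spry2 was smaller at 24 h (-2.75 and -0.61, a change of 2.14, adjusted p = 0.00694), as were those of Ngfr (-5.08 and -0.67, a change of 4.41, adjusted p = 0.0130) and Camk2n1 (-4.23 and -0.67, a change of 3.56, adjusted p = 0.0130). The rise of Syt13 was also smaller at 24 h (4.99 and 0.30, a change of -4.69, adjusted p = 0.00694). Krt18 went from 4.30 to -0.78, the latter not called (a change of -5.09, adjusted p = 0.0130). Dcn, a fibroblast gene, changed by -8.64 (adjusted p = 0.0130), a fitted value that rests on 0 counts in the wt libraries at 0 h and is no measure of size.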

How the results depend on the processing

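Leaving out each library in turn gave between 4459 and 5628 called genes for KO#2 against wt cells, lowest without wt replicate 1, with 2511 to 3165 higher and 1840 to 2463 lower, 2336 to 2971 called at both time points, and 2601 (without KO#2 replicate 1) to 4679 between the KO clones. The difference of Hmga2 then lay between -2.56 and -1.52. Library sizes alone, without TMM, shifted the median of all genes by 0.45, called 5508 genes of which 90.3% were higher, gave 532 lower and put Hmga2 at -1.44 (adjusted p = 0.0583). GC-corrected offsets gave 4164 called, 1609 higher and 2921 between the clones. At an adjusted p under 0.01, 3122 were called, 1918 higher and 1204 lower, 1475 at both time points and 1914 between the clones, and Hmga2 (-1.90) was not called. A minimum log2 change of 1 left 1623 lower and 2075 at both time points. Without the low-count filter, which added genes of few counts, 62.3% of calls were higher. DESeq2 called 6911 genes, and the remaining alternatives for the count of called genes, including the run without pseudogenes (5702) and counts thinned to the smallest library (4903), were within 1.5 times of 6329.

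Correlations of same-numbered wt and KO#2 libraries in their deviations from the group means were 0.27, 0.42 and 0.0066, and wt replicate 3 went best with KO#2 replicate 1, so the numbers were not taken as pairs. With a replicate block 6467 genes were called, and with the block and GC-corrected offsets 4568, 1672 of them higher. Of 153 named genes other than Hmga2, 76 kept their call under every alternative in which they were tested (57 of them under all 22), 77 lost it under at least 1, and 0 changed direction. The depth of wt replicate 1 limits genes under about 1 CPM, and the cause of the GC trend was not tested.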
